A study of Homo sapiens with 8 samples.

Results

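NIPBL was mapped by ChIP-seq in GM12878, an established lymphoblastoid line derived from B lymphocytes, and its peaks are described here on their own. ChIP-seq sequences the DNA that an antibody recovers from crosslinked, sheared chromatin. The members were all peaks of the 2 NIPBL libraries on chromosomes 1 to 22 and X, with no choice by strength. They numbered 36779 of the 224694 peaks in the 6 ChIP libraries of the series, 21422 in replicate 1 and 15357 in replicate 2. The other 4 libraries carried antibodies to the cohesin subunit SMC1A or to the Mediator subunit MED1 (2 each), and 2 libraries of whole cell extract, made without an antibody, were pooled as the control of every list. All cells were untreated, they were crosslinked with 1% formaldehyde for 10 min, and no label ties a replicate to a culture of its own, so the spread between replicates may be technical. No NIPBL-depleted sample was analysed here, so the antibody named in the labels is what ties the signal to NIPBL.

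NIPBL loads the cohesin ring onto DNA and stimulates the motor activity with which cohesin extrudes chromatin loops. Loss of one copy of its gene is the commonest known cause of Cornelia de Lange syndrome. In mammalian cells NIPBL has been mapped mainly to active promoters and enhancers, whereas cohesin accumulates where loop extrusion is halted, chiefly at CTCF sites. Its contact with DNA is partly through other proteins, and ChIP signals for such factors are usually lower than for proteins that bind DNA directly. A position seen in 1 library alone is therefore harder to judge, and the first question was which NIPBL peaks recur. Positions are 1-based on hg19. Neither an annotation nor a genome sequence for hg19 was used here. Regions therefore carry positions and no gene names, no sequence is printed, and the cell identity was not checked against marker genes.

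The signal behind a peak was modest and alike in both libraries. The fold enrichment, a linear ratio of signal to local control at the summit (the highest point of a peak), had a median of 3.88 in replicate 1 and 4.08 in replicate 2, and reached 24.0 and 18.9. The pileup, the number of fragments stacked on the summit, followed from the fold enrichment and the p-value. Its median was 28 fragments in replicate 1 and 27 in replicate 2, and no peak had fewer than 10 in either. Against the lowest control estimates, which scale with depth, replicate 2 had 0.850 of the depth of replicate 1. The shallower library thus had 15357 peaks and the deeper 21422, or 1.39 in replicate 1 for each in replicate 2. Ranges in parentheses after a share are its 95% interval (exact Clopper-Pearson), for counting error alone, and no test was run over peaks, since peaks of a library are not replicates of it.

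Most peaks of the shorter list were found again in the longer one. A peak was called shared when its interval overlapped a peak of the other replicate by at least 1 bp, and single otherwise. In replicate 1, 11908 peaks were shared (55.6%, 54.9 to 56.3) and 9514 were single. In replicate 2, 12175 were shared (79.3%, 78.6 to 79.9) and 3182 were single. The lists differ in length, and with the 15357 peaks of highest −log10 p in each list, 67.0% of replicate 1 and 69.5% of replicate 2 were shared. The criterion itself had few members at its edge, since 145 of 12448 overlapping pairs met over at most 50 bp, against a median overlap of 287 bp. Just outside it, 100 single peaks of replicate 1 and 80 of replicate 2 lay within 50 bp of a peak of the other list. Those edge pairs had median fold enrichments of 3.45 and 3.50, and those just outside 3.27 and 3.36. Asking for 50% of both peaks lowered the shared shares to 44.9% and 62.7%.

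How often a peak recurred rose with its strength. In the weakest decile of replicate 1 by fold enrichment, up to 2.88, 32.4% of peaks were shared (30.5 to 34.5). In the strongest decile, from 6.01 upward, it was 95.9% (94.97 to 96.7). The same deciles of replicate 2 gave 65.3% (62.8 to 67.7) and 99.0% (98.4 to 99.5). In replicate 1 the rise was shallow over the weaker deciles and steep over the stronger ones, with decile 5 at 45.3%. Ranking by −log10 p, which also counts the depth at the site, spread the deciles further, from 22.04% to 99.4% in replicate 1 and from 55.0% to 99.9% in replicate 2. By that rank 12 peaks of the strongest decile of replicate 1 and 2 of replicate 2 were single.

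Wide peaks also recurred more often than narrow ones. A longer interval meets the criterion of 1 bp more easily by its length alone, and how much this adds to the rise was not tested. Of the 908 replicate 1 peaks at the smallest width, 200 bp, 18.7% were shared (16.2 to 21.4), and of the 689 in replicate 2 it was 48.0% (44.3 to 51.8). From 501 to 700 bp the shares were 86.2% and 97.5%. All 54 peaks of replicate 1 and all 7 of replicate 2 over 2 kb were shared, counts that allow shares down to 93.4% and 59.0%. Strength and recurrence also went together among peaks of like width. Between 301 and 400 bp in replicate 1, 70.9% of the peaks above the median fold enrichment were shared and 41.4% of the others. In replicate 2 the same classes gave 91.3% and 77.7%. At 200 bp no such split was seen, with 19.0% and 18.5% in replicate 1 and 46.6% and 49.4% in replicate 2.

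**Figure D1:**
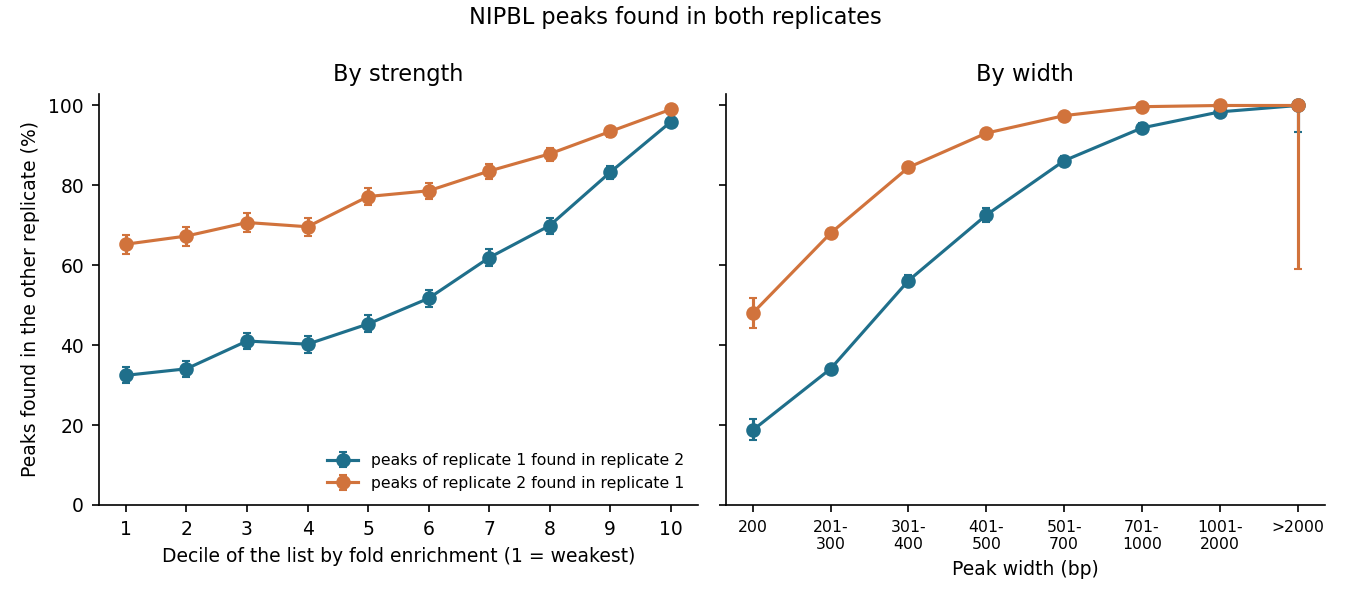
Share of NIPBL peaks found in the other replicate (%), with exact 95% intervals, by decile of the list in order of fold enrichment (left) and by peak width in bp (right). In both lists the share rises with width and, but for a slight dip at decile 4, with strength, from 32.4% to 95.9% across deciles in replicate 1 and from 65.3% to 99.0% in replicate 2.

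Shared peaks were stronger and wider than single ones in both lists, but the distributions of strength overlapped widely. Median fold enrichment was 4.36 for shared and 3.51 for single peaks in replicate 1, a ratio of 1.24. In replicate 2 it was 4.24 and 3.64, a ratio of 1.17. Quartiles ran from 3.58 to 5.48 for shared and 3.07 to 4.01 for single peaks in replicate 1, and from 3.56 to 5.21 and 3.21 to 4.14 in replicate 2. Of the single peaks, 14.7% in replicate 1 and 21.3% in replicate 2 lay above the median of the shared ones. A fold enrichment over 6 was reached by 2069 shared and 89 single peaks of replicate 1, and by 1681 and 22 of replicate 2. Thus the upper end of each list held almost none but shared peaks, while its lower end held both kinds.

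Median width was 416 bp for shared and 261 bp for single peaks of replicate 1, and 340 and 244 bp in replicate 2. The widest single peak was 1206 bp in replicate 1 and 986 bp in replicate 2. Median pileups were 34 fragments for shared and 24 for single peaks in replicate 1, and 29 and 22 in replicate 2. The control estimate, the number of fragments expected at the summit from the whole cell extract, was also higher at shared peaks, with medians of 7.24 against 6.03 in replicate 1 and 6.15 against 5.13 in replicate 2. Shared peaks therefore stood above their control by a larger ratio although that control was itself higher. Across deciles of the control estimate the shared share went from 32.0% to 74.1% in replicate 1 and from 60.6% to 88.3% in replicate 2. Whether this control level has a part in the recurrence was not tested. Summits lay near the middle of their peaks, off centre by a median of 11.2% of the width at shared and 12.9% at single peaks of replicate 1, and by 10.8% and 13.0% in replicate 2.

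**Figure D2:**
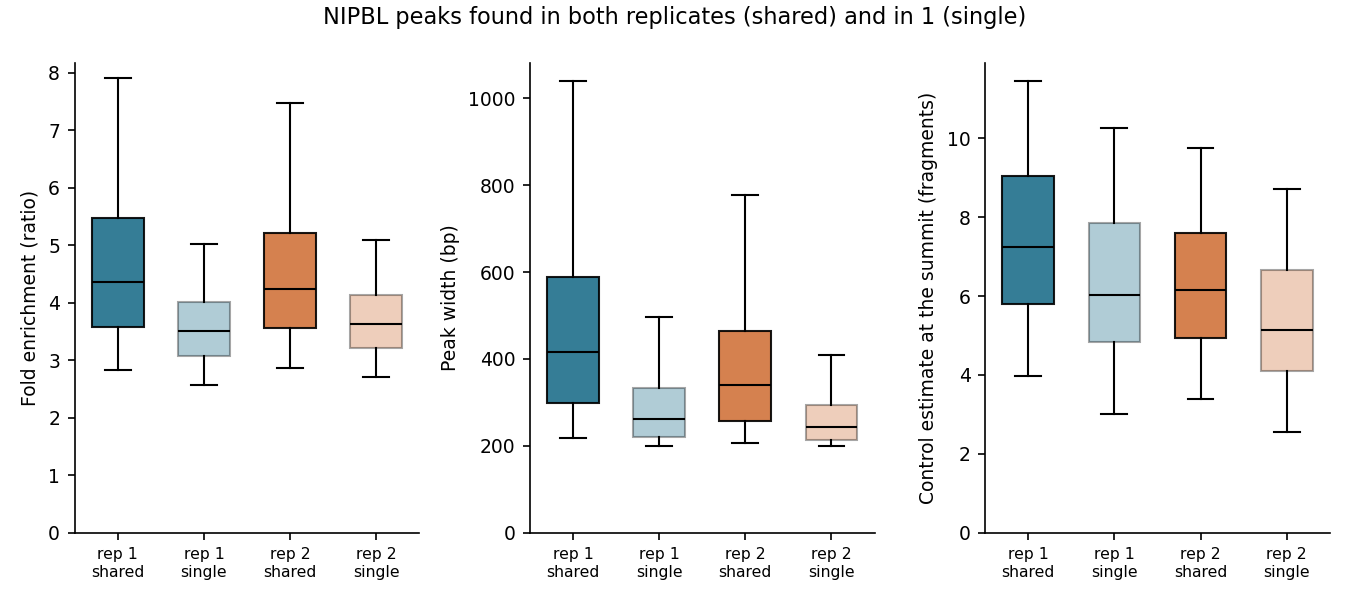
Fold enrichment (ratio), peak width (bp) and control estimate at the summit (fragments) for shared and single NIPBL peaks of replicates 1 and 2. Boxes span the quartiles, lines are medians and whiskers run from the 5th to the 95th percentile of peaks. Shared peaks have the higher median in all 3 measures in both lists, and the boxes for fold enrichment overlap.

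The depth ratio was also applied to the single peaks of replicate 1. With pileup and control multiplied by 0.850, 96.8% (96.5 to 97.2) reached 3.95, the lowest −log10 p in the replicate 2 list, and with depth ratios of 0.935 and 0.842, taken from the first percentile of the control estimates and from the pileups at shared regions, 98.3% and 96.4% did. This bar is the lowest value of a whole list, while the 5th percentile of these peaks was 5.00 before scaling, so few could fall below it. Counting noise between libraries is left out as well. The shares therefore do not say whether depth has a part in a peak being single, which was not tested.

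Single peaks in the strongest decile of a list by fold enrichment were few and stood on low control. There were 88 in replicate 1 and 15 in replicate 2. Their median pileup was 28 fragments over a control of 3.56 in replicate 1 and 26 over 2.97 in replicate 2. Shared peaks of the same decile had 56 over 6.63 and 49 over 5.64. These single peaks thus had about as many fragments as the median peak of their list. Fold enrichment divides by the control, so a peak with that many fragments enters this decile only where the control is low. The low control therefore follows from the ranking. Of the 88 in replicate 1, 59 (67.0%) overlapped a peak of MED1 replicate 2 and 48 (54.5%) one of SMC1A replicate 2. For all single peaks of replicate 1 these shares were 73.1% and 49.7%, and for shared peaks of the same decile 96.1% and 87.1%. MED1 replicate 1 was met by 21 (23.9%) and SMC1A replicate 1 by 37 (42.0%), against 30.8% and 36.0% of all single peaks. None of the 4 lists of the other proteins was met by 16 of the 88, and by 15.5% of all single peaks. Of the 15 in replicate 2, 9 (60%) overlapped MED1 replicate 2, 8 (53.3%) SMC1A replicate 2, and 4 none. For all single peaks of replicate 2 the shares were 79.9%, 56.2% and 9.30%. MED1 replicate 1 was met by 6 (40%) and SMC1A replicate 1 by 5 (33.3%), against 36.9% and 39.3% of all single peaks.

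The strongest single peaks were unlike one another. In replicate 1 the first, chr9:79186611-79186983, had a fold enrichment of 9.91 and 40 fragments over a control of 3.14. It overlapped no peak of any other list, and the nearest replicate 2 peak was 99.2 kb away. The second, chr11:118306555-118307261, had 9.75 and was 707 bp wide, and it coincided with MED1 peaks of 8.80 and 18.1 in MED1 replicates 1 and 2. The third, on chromosome 12 (chr12:127650436-127650802, 9.42), again overlapped no other list. The fourth and the fifth, chr14:94812654-94813071 (8.50) and chr10:51827532-51827771 (7.90), overlapped MED1 replicate 2 alone, at 7.27 and 6.09.

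In replicate 2 the strongest single peak, chr7:100075740-100076260, had a fold enrichment of 7.55 and lay 4.83 kb from a replicate 1 peak. It coincided with MED1 peaks of 5.89 and 14.4 in MED1 replicates 1 and 2 and with a SMC1A replicate 2 peak of 7.78. The second and the third lay on very strong cohesin peaks. At chr1:23963968-23964331 NIPBL had 7.36 and SMC1A 34.2 and 36.4 in its replicates 1 and 2, and MED1 replicate 2 had 3.88. At chr16:84958726-84958939 NIPBL had 7.22 and SMC1A 33.1 and 39.4, with no MED1 peak in either list. The fourth, chr22:42896299-42896511 (6.97), overlapped no other list, and the fifth, chrX:129253085-129253366 (6.88), overlapped MED1 peaks of 4.57 and 5.70.

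Merging overlapping peaks of both replicates gave 11635 shared regions. They had a median width of 473 bp (quartiles 361 and 650) and covered 6.50 Mb, or 0.221% of the 2940 Mb between the first and last peak of any list on each chromosome. Of them, 10964 (94.2%) held exactly 1 peak of each replicate. More than 1 replicate 1 peak lay in 268 regions, at most 3, and more than 1 replicate 2 peak in 463, at most 8. Where both lists had 1 peak, the replicate 1 peak was the wider in 69.3% of regions and the replicate 2 peak in 30.3%, with medians of 409 and 334 bp. The pileup there was 34 and 29 fragments, and the median ratio of the second to the first was 0.842, close to the depth ratio of 0.850.

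Fold enrichment was mostly within 1.5-fold between replicates and agreed moderately in rank. The strongest peak of each replicate in a region was used. The log2 ratio of replicate 1 to replicate 2 had a median of 0.03 and an SD of 0.34 across regions, and 91.1% of regions were within 1.5-fold. Shared peaks span a narrow range, with quartiles of 3.58 to 5.48 in replicate 1 and 3.56 to 5.21 in replicate 2. That range alone keeps many ratios small, and the share expected from unrelated regions was not computed. A difference over 2-fold was found at 58 regions (0.498%), 30 of them higher in replicate 1 and 28 in replicate 2. Spearman's rho across the 11635 regions was 0.64 for fold enrichment, 0.67 for −log10 p and 0.81 for pileup. These values describe regions of the same 2 libraries, which share their control, and have no p-value.

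The 5 regions with the most unequal fold enrichment were all higher in replicate 2. They were chrX:130874839-130875426 (2.38 and 7.45 in replicates 1 and 2), chr1:160068219-160068762 (3.14 and 8.86), chr19:2579404-2579868 (2.86 and 7.63), chr22:24142490-24142937 (2.22 and 5.51) and chr2:62293319-62293680 (2.95 and 7.25). In each, the summits of the replicates were 150 to 238 bp apart, so the compared values were read at different points of the region. Pileups differed less than the ratios in all 5, least on chromosomes 22 (24 and 26 fragments) and 2 (34 and 36) and most on chromosome 1 (23 and 46).

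Summits of the 2 libraries usually fell close to each other at shared regions. These were chosen by overlap of their peaks, which already limits how far apart summits can lie. No distance expected from overlap alone was computed. The median distance was 45 bp (quartiles 20 and 91). At 54.4% of regions the summits were within 50 bp and at 92.3% within 200 bp, and 125 regions had both at the same base. There was no shift to one side, since the replicate 1 summit was to the right in 49.0% and to the left in 49.9%. Stronger regions had closer summits. The weakest decile of regions had a median distance of 57 bp and the strongest 25 bp, although the strongest were wider (medians of 692 and 414 bp). Within 50 bp lay 46.4% of the weakest and 77.2% of the strongest decile. With region width the distance grew. Its median was 33 bp in regions up to 300 bp and 111 bp in the 77 regions over 2 kb. Of the latter, 53.2% had summits within 200 bp. In a region up to 300 bp, peaks of at least 200 bp must largely coincide. Narrow regions thus leave little room for distant summits, so part of this rise is by construction.

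**Figure D3:**
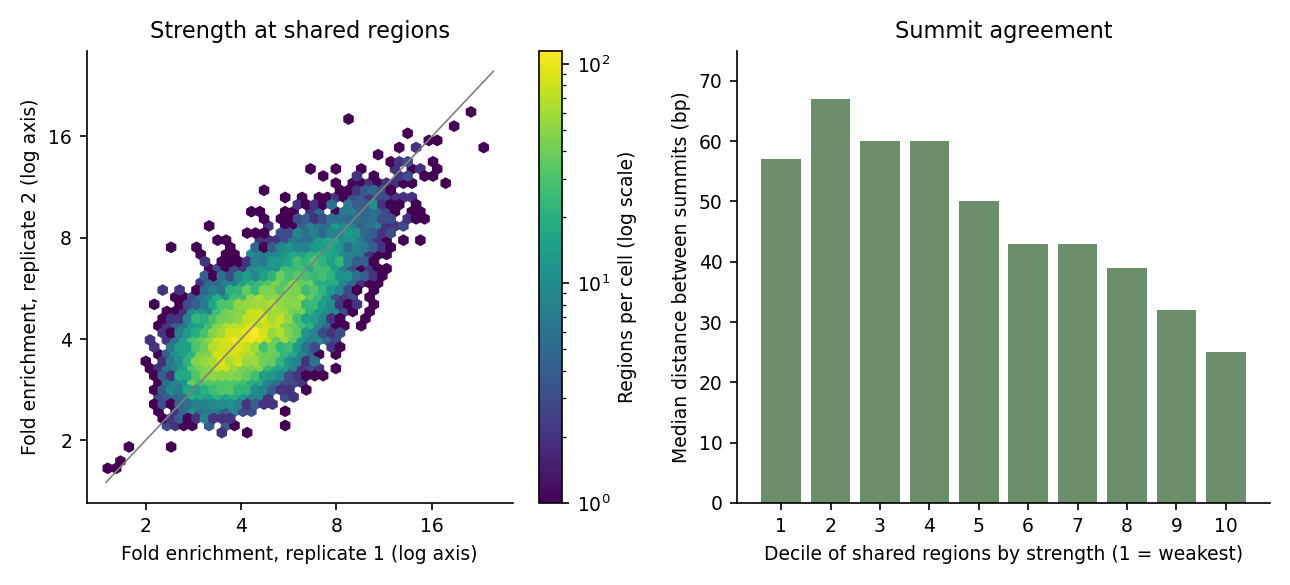
Left, fold enrichment of the strongest peak in replicate 2 against replicate 1 at the 11635 shared regions (log axes, colour gives regions per cell, grey line marks equal values). Right, median distance in bp between the summits of both replicates by decile of regions in order of strength, which is 57 bp in the weakest decile, highest at 67 bp in decile 2 and 25 bp in the strongest.

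At the strongest regions the 2 libraries placed the summit within 52 bp of each other. Strength here is the mean over both lists of the percentile of fold enrichment. The first, chr13:114832643-114833796, had summits at 114833079 and 114833056 in replicates 1 and 2, 23 bp apart, with pileups of 150 and 115 fragments. The second, chr7:55601706-55603115, had 156 and 121 fragments and summits 7 bp apart. The third, chr13:42951320-42953430, had 150 and 123 fragments and summits 14 bp apart. Across the 10 strongest regions the distance ran from 2 bp, at chr14:94425576-94426158, to 52 bp, at chr1:235145515-235148994. The latter, the fifth in order, had the highest pileups of the 10, 169 and 132 fragments, and was 3480 bp wide. The others were chr3:124859457-124861072 (139 and 97 fragments), chrX:130845008-130845655 (94 and 67), chr7:73686694-73687544 (107 and 116), chrX:9309333-9310293 (81 and 68) and chr1:150539642-150540730 (103 and 70). The region at chr7:73686694-73687544 was the only one of the 10 with more fragments in the shallower library.

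Fold enrichments of these 10 regions differed between libraries in both directions. At chr14:94425576-94426158 the fold enrichments were 14.6 and 14.9. At chr7:73686694-73687544 they were 13.7 and 16.4, at chrX:9309333-9310293 14.1 and 15.0, and at chr1:150539642-150540730 16.2 and 12.9. None of these 4 differences exceeded 1.5-fold. Among the first 6, only chr3:124859457-124861072 went beyond that, with 24.0 and 14.8. All but the first of the 10 had another shared region within 10 kb, the nearest 0.054 kb away at chr7:55601706-55603115, while at chr13:114832643-114833796 the nearest was 17.9 kb away.

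The widest regions were wide mainly in replicate 1. The first, chr21:26933799-26942522 (8724 bp), held 2 peaks of replicate 1, the longer 5584 bp, and 8 of replicate 2, of which the longest was 1424 bp. The second, chr11:65265690-65273165 (7476 bp), was 1 peak of replicate 1 and 7 of replicate 2. The third, chr15:45003074-45008789 (5716 bp), held 2 and 4, the fourth, chr12:92534370-92539689 (5320 bp), 1 and 6, and the fifth, chr3:185650625-185655700 (5076 bp), 1 and 7. Such stretches were thus less broken in the deeper library than in the shallower. Their strength was ordinary to high, with fold enrichments from 3.80 in replicate 2 of the fourth to 7.23 in replicate 2 of the first. In all but the first the strongest summits were 2399 to 3931 bp apart, so different points of the stretch were highest in each library.

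NIPBL regions were unevenly spaced. Distance was measured between the facing edges of neighbouring regions on a chromosome. The median over 11612 neighbouring pairs was 29.8 kb (quartiles 5.06 and 168 kb), while the mean was 250.5 kb, 8.41 times the median. A neighbour within 1 kb was found for 18.4% of regions and within 10 kb for 51.6% (50.7 to 52.5). Another region within 100 kb was found for 84.8%, and 109 regions (0.937%) had none within 1 Mb. Many short distances and few very long ones thus made up the spacing. In the single lists the median distance was 15.4 kb in replicate 1 and 22.9 kb in replicate 2, and 62.2% and 56.3% of peaks had a neighbour within 10 kb. In the SMC1A lists, of 56510 and 68228 peaks, that share was 53.3% and 59.9%. In the MED1 lists, of 18131 and 45046 peaks, it was 65.0% and 74.5%. NIPBL thus lay within their range in the lists as called. The share depends on list length as well, and it was not compared at equal length. For median spacing, trimming all lists to equal length reversed the difference (log10 difference from 0.14 to -0.26). Whether close neighbours are pieces of 1 broad stretch was not tested. No 2 peaks of a list were closer than 49 bp in replicate 1 or 50 bp in replicate 2. The smallest distance in each SMC1A and MED1 list was likewise 49 or 50 bp.

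**Figure D4:**
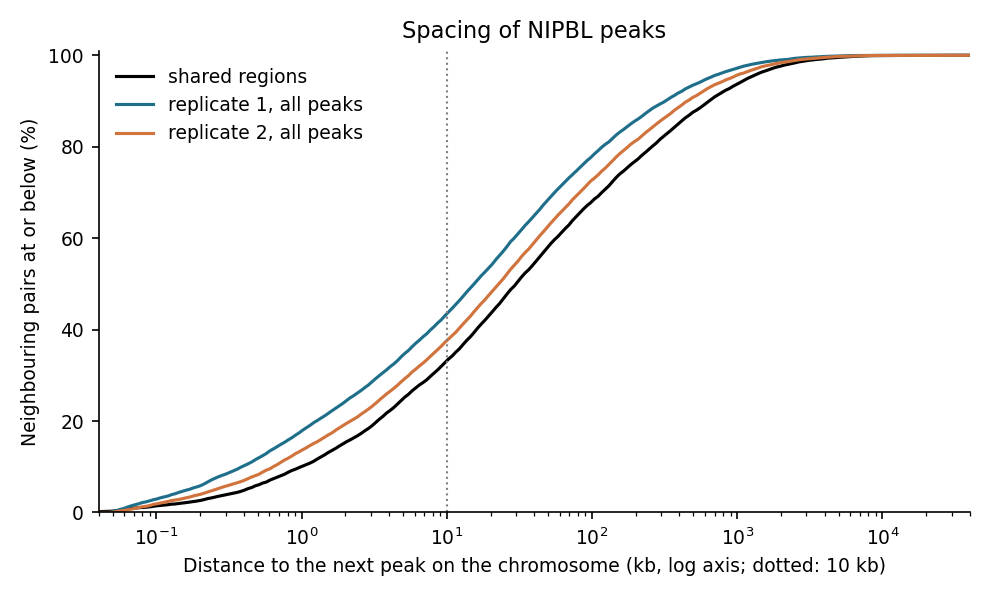
Cumulative share (%) of neighbouring pairs against the distance in kb (log axis) to the next peak, for shared NIPBL regions and for all peaks of each replicate. The curves run over several orders of magnitude, and medians are 29.8 kb for shared regions, 15.4 kb for replicate 1 and 22.9 kb for replicate 2.

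Crowded regions were wider than isolated ones but not stronger. Regions with a neighbour within 1 kb had a median width of 564 bp and those with one at 100 kb to 1 Mb 393 bp. Fold enrichment was alike, with medians of 4.32 in replicate 1 and 4.17 in replicate 2 for the first class and 4.41 and 4.32 for the second. The 109 regions with no neighbour within 1 Mb had 4.69 and 4.52, a width of 406 bp and a median percentile of 67.7 (quartiles 45.7 and 83.4), against 57.1 (35.4 and 79.8) for those within 1 kb. Strength was hardly shared between neighbours. Across 3851 pairs of neighbours at most 10 kb apart, Spearman's rho of strength was 0.06 and of width 0.14. Across 3715 pairs over 100 kb apart it was 0.01 and 0.03. These are descriptions, since neighbours share library and control.

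Many single peaks, though not most, lay within 10 kb of a shared region. Within 10 kb of a shared region were 45.1% of the single peaks of replicate 1 (44.1 to 46.1) and 38.7% of those of replicate 2 (37.0 to 40.4). Such flanks with the regions themselves made up 5.71% of the 2940 Mb stretch. Within 100 kb the shares were 80.5% and 77.8%, against 29.3% of the stretch. Shared regions were near another shared region in 51.6% of cases at 10 kb and 84.8% at 100 kb. The single peaks near a shared region were slightly weaker than those farther off, with median fold enrichments of 3.41 and 3.61 in replicate 1 and 3.55 and 3.70 in replicate 2. Their control estimates were the higher, 6.39 against 5.79 and 5.54 against 5.13. To a peak of the other replicate, shared or single, the median distance was 10070.5 bp in the single peaks of replicate 1 and 8799 bp in those of replicate 2, and 15.5% and 12.4% had none within 100 kb.

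The density of NIPBL differed almost 4-fold between chromosomes. Densities are per Mb of the stretch between the first and last peak of any list, which still includes centromeres. The 23 chromosomes had 3.96 shared regions per Mb over all. Chromosome 19, the most gene-dense human chromosome, had most, with 7.63 per Mb, followed by 17 (5.88), 22 (5.42), 15 (5.05) and 16 (5.04). The lowest were chromosome X (1.94), 4 (2.52) and 13 (2.83). The order was nearly that of each list by itself, with Spearman's rho of 0.97 between the replicates over 23 chromosomes. Chromosome 19 exceeded X by 3.94 times in shared regions, 3.62 in replicate 1 and 4.21 in replicate 2. The same ratio was 2.89 and 3.21 in the SMC1A libraries and 5.02 and 4.74 in the MED1 libraries. Spacing did not simply follow density. Chromosome X had a median distance of 32.1 kb, about that of chromosome 8 (32.6 kb, 3.82 per Mb), and 50.8% of its regions had a neighbour within 10 kb, against 39.9% on chromosome 4. Regions of chromosome X were thus few but grouped. Their fold enrichment was the highest of any chromosome, with medians of 4.82 and 4.63, and the control estimate at its peaks the lowest, 5.25 and 4.61 against 6.25 to 6.88 and 5.64 to 6.15 elsewhere. Whether this low control has a part in the high ratio was not tested.

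The replicates differed in how their peaks were divided among chromosomes. Replicate 1 had 1.39 peaks for each of replicate 2 over all, but 1.22 on chromosome 19, 1.24 on 16 and 1.28 on 17, and 1.61 on chromosome 13 and 1.54 on 18. Across the 23 chromosomes this ratio fell with the density of shared regions (Spearman's rho of -0.64, a description over chromosomes of the same 2 libraries). The shared share of replicate 1 went with it, from 49.2% on chromosome 13 to 60.1% on 19 and 62.3% on 16. In replicate 2 the lowest share was on chromosomes 17 (73.5%) and 19 (73.8%), and the highest on 18 (83.4%). Spearman's rho of the shared share with density was 0.69 in replicate 1 and -0.46 in replicate 2. Peaks found in replicate 1 alone thus tended to be more frequent on sparse chromosomes, and those found in replicate 2 alone on dense ones. The sparsest chromosomes departed from this. Chromosome X, with a ratio of 1.41 and 54.8% of replicate 1 peaks shared, was near the whole lists (1.39 and 55.6%). On chromosome 4, 77.7% of replicate 2 peaks were shared, below the 79.3% of the whole list. Base composition, which differs between such chromosomes, was not examined.

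**Figure D5:**
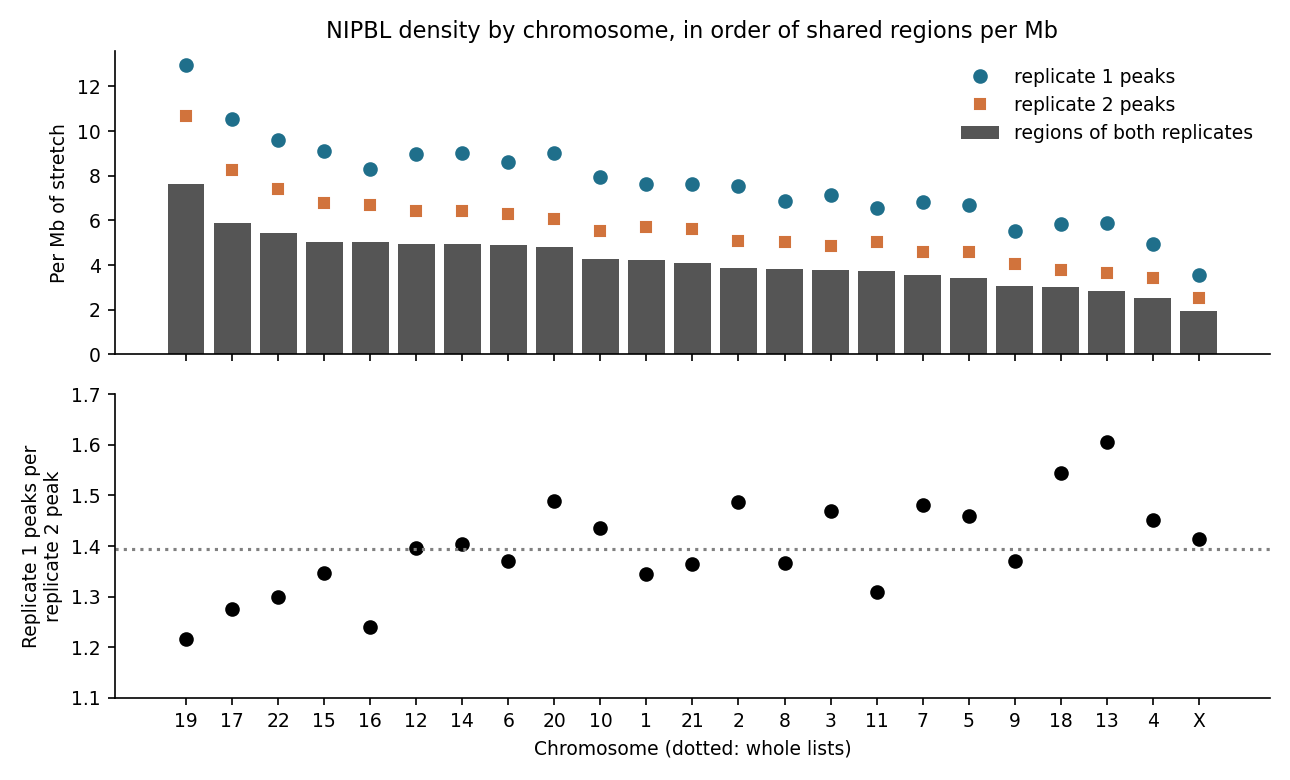
Top, shared NIPBL regions (bars) and peaks of each replicate (points) per Mb of the stretch between first and last peak, with chromosomes in order of shared regions. Bottom, replicate 1 peaks per replicate 2 peak, on an axis that starts above 0. It is 1.22 on chromosome 19, 1.61 on chromosome 13 and 1.39 for whole lists (dotted line).

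Within chromosomes, regions were gathered in a minority of windows. The stretch was cut in 2958 windows of 1 Mb, which held a median of 2 and a mean of 3.93 regions. The densest 296 windows, 10% of all, with 11 regions or more each, held 43.2% of the regions (42.3 to 44.1). At the other end 984 windows (33.3%) held no shared region, and 859 of those held a peak of SMC1A or MED1, so peaks could be called there. A NIPBL peak of at least 1 list lay in 311 of the 984, so these were not all without NIPBL peaks. The densest windows lay on all 23 chromosomes, 30 of them on chromosome 1 and 17 on 19. They held 35.1% of the single peaks of replicate 1 and 32.0% of those of replicate 2, and of the peaks of the other proteins 34.6% for MED1 and 24.0% for SMC1A. The windows were chosen by shared regions, so these shares are a description and not a comparison of like with like. Counts per window in the lists of both replicates had a Spearman's rho of 0.95 over the 2958 windows.

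The window with most regions was chr16:11000001-12000000, with 43, and the adjoining chr16:10000001-11000000 held 34. In the first of these, replicate 2 had more peaks than replicate 1 (61 and 59), although its list is the shorter. The next were chr2:231000001-232000000 (42 regions, with 71 and 46 peaks in replicates 1 and 2), chr2:8000001-9000000 (38, with 66 and 44), chr20:52000001-53000000 (37, with 75 and 41) and chr19:2000001-3000000 (37, with 58 and 47). The window on chromosome 20 held 36 single peaks of replicate 1 and 2 of replicate 2. The longest distance between shared regions with a peak of another protein inside was chr9:38672865-68413750, 29.7 Mb, of which 21.0 Mb was empty in all 6 lists. The second, chr1:121485436-145389977 (23.9 Mb, 22.3 Mb empty), was of the same kind, and both span a centromere. The third, chrX:78526207-96653270, was 18.1 Mb long and not empty, with 80 and 89 SMC1A peaks in replicates 1 and 2, 0 and 16 MED1 peaks, and 5 and 3 NIPBL peaks that did not coincide.

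The lists of the other proteins, which played no part in choosing members, overlapped shared NIPBL peaks more often than single ones in all 8 pairings of a NIPBL list with a SMC1A or MED1 list. For MED1 replicate 1 the share was 68.7% of shared (67.9 to 69.6) and 30.8% of single peaks (29.9 to 31.7) in NIPBL replicate 1, and 68.8% and 36.9% in NIPBL replicate 2. For SMC1A replicate 1 it was 64.6% (63.7 to 65.4) and 36.0% (35.04 to 37.0) in NIPBL replicate 1, and 64.2% and 39.3% in NIPBL replicate 2. Of the bases in the stretch at large, MED1 replicate 1 covers 0.286% and SMC1A replicate 1 0.747%, far less than these shares of single peaks. The measures are unlike, since 1 bp of overlap counts a whole peak while coverage counts bases. The longer list of MED1 replicate 2, which covers 0.921%, overlapped 93.8% of shared peaks in each NIPBL list and 73.1% and 79.9% of the single peaks. SMC1A replicate 2 overlapped 78.8% and 78.4% of shared and 49.7% and 56.2% of single peaks. None of the 4 lists was met by 203 shared peaks (1.705%) and 1479 single peaks (15.5%) in NIPBL replicate 1, and by 214 (1.76%) and 296 (9.30%) in replicate 2.

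The differences were smaller among peaks of like width. Among peaks of 201 to 300 bp alone, the gap between shared and single peaks for MED1 replicate 1 was 21.7 percentage points in NIPBL replicate 1, against 38.0 over all widths, and 19.2 against 32.0 in NIPBL replicate 2. In all 8 pairings the gap in this width class kept its sign, from 10.9 to 21.7 points. All lists share the whole cell extract control.

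Set against the other 4 ChIP libraries, NIPBL peaks were the narrowest. Median widths were 326 and 311 bp for NIPBL, 348 and 354 bp for SMC1A, and 342 and 419 bp for MED1. The mean of the NIPBL medians was 318.5 bp ± 10.6 (SD, n = 2) and that of the others 365.75 bp ± 35.8 (SD, n = 4). Both NIPBL values lay below all the others, and the two-sided exact permutation p was 0.133 (adjusted 0.333 over 5 measures), the smallest that 2 against 4 libraries allow, so 0.05 could not be reached. In the lists as called, the other measures overlapped between NIPBL and the rest or differed by little. Off centre by a median of 11.9% and 11.2% of the width, NIPBL summits were like those of MED1 (11.7% and 11.4%), while those of SMC1A were at 6.11% and 6.61% (exact permutation p = 0.4 for NIPBL against the other 4, adjusted p = 0.4). Median spacing was 15431 and 22904.5 bp for NIPBL replicates 1 and 2 and 7493 to 20877 bp for the others, so that replicate 1 lay within their range and replicate 2 above it (exact permutation p = 0.4, adjusted p = 0.4). Median fold enrichment, 3.88 and 4.08 for NIPBL against 3.81 to 8.61, gave the same p. The position of the summit along the peak, as a fraction of its width, was 0.494 in both NIPBL libraries and 0.495 to 0.496 in the others, with p = 0.133 (exact permutation, adjusted p = 0.333).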

How the data were processed

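Deposited ChIP-seq peak lists of GM12878 were used. Tools named in the submitters' processing notes are MACS2 2.1.0, BWA 0.7.12 and Trimmomatic 0.33, with the build hg19; no source used here states their settings. Each library had its own peak list, with pooled whole cell extract as control, per the labels. Each deposited fold enrichment is a ratio at the summit and the authors' own value, used to describe and rank peaks. Deposited −log10 p and −log10 q refer to the same summit, and the deposited score was left aside. The lowest −log10 q was 1.31 and 1.34 in the NIPBL lists.

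Peaks outside chromosomes 1 to 22 and X were left out. Overlap of at least 1 bp defined shared peaks. Pileup and control were solved from fold enrichment and p-value, taking the ratio of pileup plus 1 to control plus 1 and an upper Poisson tail, and all pileups came out whole within 0.05. That step and the overlaps were tested on simulated data. Computations used Python 3.11.15, numpy 2.4.6, pandas 2.3.3 and scipy 1.17.1. Libraries were compared by two-sided exact permutation tests with Benjamini-Hochberg adjustment over 5 measures, one of them (summit distance from the centre) added after the data were seen. Named were the 10 strongest and 5 widest shared regions, the 5 strongest single peaks of each list, the 5 regions of most unequal fold enrichment, the 5 densest windows and the 3 longest stretches with a peak of another protein. The second window on chromosome 16, the counts in the strongest deciles and at like width, and the overlaps with other lists were chosen after values were seen. The members and lists were chosen with earlier results of these data known. Alternatives tried were the overlap rule, stricter thresholds, lists of equal length, window length, the distance measure, the rank, and leaving out libraries.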

Additional observations from a re-analysis of the deposited data

Results flagged for a closer look

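Peaks were also called on sequences outside chromosomes 1 to 22 and X, which the comparisons above leave out. NIPBL replicate 1 had 39 such peaks and replicate 2 had 12, on the mitochondrial genome and on unplaced or unlocalised contigs. They are listed because they are signal that no comparison uses, and whether their number is unusual was not tested. A single unplaced contig held 22 and 4 of them, and the mitochondrial genome 8 and 3. Their median fold enrichment was 1.85 and 2.40, below the medians of 3.88 and 4.08 on the chromosomes used, and their highest was 5.69 and 7.21.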

How the results depend on the processing

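Of 81 recomputed values, 71 stayed within the spread between replicates (set at 1 bp for the summit distance and 0.005 for the rank correlation) or kept their direction, 9 moved and 1 reversed, and the cause was not tested except where the construction shows it. The share of peaks found in the other replicate, the contrasts of shared and single peaks in fold enrichment and width, the summit distance and the ratio of chromosome 19 to X moved by no more than the spread under the alternatives run. The contrasts in fold enrichment and width are means of both lists, so leaving out a replicate could not move them past that spread, and those values show nothing about stability. The spread of the ratio of chromosome 19 to X comes from its values in each list, so these could hardly pass it either. For the shared share the spread was 16.8 points, from 55.6% and 79.3% in lists of unlike length. The fall of its mean from 67.4% to 53.8% with 50% overlap of both peaks therefore counted as unmoved. Without either replicate, the ratio of median fold enrichment ran from 1.17 to 1.24, the difference in median width from 96 to 155 bp and the ratio of chromosome 19 to X from 3.62 to 4.21. Rank correlation between replicates was 0.670 for −log10 p and 0.635 in regions with 1 peak of each. Where 1 list replaced the shared regions, the longer list gave closer neighbours by construction, with a median spacing of 15.4 to 22.9 kb, 56.3% to 62.2% of peaks with a neighbour within 10 kb, and 40.4% to 42.3% in the densest windows. That last share was 53.8% in windows of 500 kb and 35.2% in windows of 2 Mb. Against SMC1A and MED1 libraries, the difference in log10 median spacing went from 0.14 to -0.26 when all 6 lists were trimmed to equal length by −log10 p (exact permutation p = 0.533), and was 0.0501 to 0.223 with 1 library left out. Trimming to equal length also took the difference in width from -47.25 to -179.5 bp and that in fold enrichment from -2.21 to -10.1. Both kept their direction, but their size changed with list length. The differences with 1 library left out were -55.2 to -29.5 bp for width, -3.01 to -1.41 for fold enrichment, -0.00180 to -0.00151 for the relative summit position and 1.65 to 3.52 points for the distance from the centre. With a NIPBL library left out, 1 library stood against 4. No test passed 0.05, in any of these settings or in the main one, nor could it. In the fit with a replicate block, which permutes labels within a replicate number, differences were by construction those without it (0.137 in log10 spacing, -47.25 bp in width, -2.21 in fold enrichment, -0.00166 in relative position and 2.60 points from the centre), with exact p from 0.222, the smallest it allows, to 0.444. No label says that a number marks a shared batch, so the numbers are not taken as pairs. No value of the shared share can be had without either replicate. The lowest pileup of a NIPBL peak was 10 fragments in both lists.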
